A study of Mus musculus with 2 samples.

Results

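Mir139, Mir149, Mir652 and Mir744 are microRNA genes that each lie in an intron of a protein-coding gene and each have a single copy in the annotation. The 4 were taken from 2202 annotated mouse microRNA genes by their GENCODE M21 symbol, for being single-locus microRNAs with a protein-coding host among the 20 most abundant, so they were chosen by their mean level in these libraries, and that high level is no result. All 4 had rows in both tables and passed every filter on low counts. Small RNA under 30 bases was sequenced from hippocampus tissue of female B6CASTF1/J mice aged 14 days, the first-generation cross of C57BL/6J and CAST/EiJ, obtained from The Jackson Laboratory, with no treatment named in the labels. There was 1 group of 2 biological replicates with 1 technical replicate each, and each library carries a label for 3 females, so a library stands for a pool. With 1 group no conditions could be compared, and pool and library preparation cannot be told apart, as each pool gave 1 library.

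A microRNA starts as a hairpin in a longer transcript. The nuclear enzyme Drosha cuts the hairpin out, Dicer trims it to a short duplex, and 1 strand is loaded into an Argonaute protein. Bases 2 to 8 of the loaded strand, the seed, pair with messenger RNAs, which are then translated less or degraded faster. A hairpin inside an intron is usually transcribed with its host gene, although some have promoters of their own. Host transcripts were not measured in these libraries.

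Among the hosts, Pde2a and Map2k4 are genes of signalling and Gpc1 is a gene of the cell surface. Pde2a, the host of Mir139, encodes a phosphodiesterase that breaks down cyclic AMP and cyclic GMP and is abundant in forebrain neurons. Map2k4, the host of Mir744, encodes a kinase that activates the JNK and p38 stress pathways. Gpc1, the host of Mir149, encodes glypican-1, a heparan sulfate proteoglycan anchored in the cell membrane. Tmem164, the host of Mir652, encodes a membrane protein.

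The mature sequences are shown because a count for a gene joins the products of both arms of its hairpin. The tables do not say which of these strands a read came from. Capitals mark the seed, and sequences are RefSeq's on GRCm38.p6, where all 4 genes and their 8 mature arms were matched by symbol.
mmu-miR-139-5p: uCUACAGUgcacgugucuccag
mmu-miR-139-3p: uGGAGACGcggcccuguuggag
mmu-miR-744-5p: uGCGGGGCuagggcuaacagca
mmu-miR-744-3p: cUGUUGCCacuaaccucaaccu
mmu-miR-652-5p: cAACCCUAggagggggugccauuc
mmu-miR-652-3p: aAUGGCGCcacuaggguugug
mmu-miR-149-5p: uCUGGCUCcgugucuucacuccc
mmu-miR-149-3p: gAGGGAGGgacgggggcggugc

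No seed was shared among the 8 arms. Against the 1738 mature records of the RefSeq table, 7 of the 8 seeds were found in no other microRNA. The seed of miR-149-3p also occurs in miR-7016-5p, miR-1943-5p and miR-6967-5p. Few counts were assigned to their genes. Mir7016 had 15 and 11 counts in replicates 1 and 2, Mir1943 had 10 and 5, and both annotated copies of the miR-6967 gene, Gm27775 and Gm27740, had 0. These copies share a run of 20 bases or more, so their reads may be among the multi-mapping ones and their level is uncertain. The exact sequence of each arm was found in its own hairpin and in no other transcript among 141767 in the M21 annotation, on either strand. None of the 4 hairpins shares a run of 20 bases with another microRNA gene. Introns and intergenic copies outside the annotated transcripts were not searched.

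The hairpins are shown to place the arms, which are in capitals.
Mir139 hairpin: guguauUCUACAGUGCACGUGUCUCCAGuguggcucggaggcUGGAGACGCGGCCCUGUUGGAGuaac
Mir744 hairpin: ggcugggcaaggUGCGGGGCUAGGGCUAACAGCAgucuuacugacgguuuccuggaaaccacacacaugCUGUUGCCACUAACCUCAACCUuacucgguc
Mir652 hairpin: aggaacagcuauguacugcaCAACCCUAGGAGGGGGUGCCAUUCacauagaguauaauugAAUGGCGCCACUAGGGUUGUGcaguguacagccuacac
Mir149 hairpin: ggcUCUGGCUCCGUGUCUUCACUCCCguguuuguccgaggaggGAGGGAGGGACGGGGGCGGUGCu

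The hairpins fall into a short and a long pair. Those of Mir149 and Mir139 have 66 and 68 bases, and those of Mir652 and Mir744 have 98 and 100. Predicted folding energies (ViennaRNA) were -35.60 kcal/mol for Mir139, -36.70 for Mir149, -44.80 for Mir744 and -49.00 for Mir652, and 18 to 20 bases of each arm were paired. G and C made up 58.8% of the Mir139 hairpin, 68.2% of Mir149, 50.0% of Mir652 and 56.0% of Mir744, beside a median of 52.1% over the 409 genes that reached 10 counts in each library. The arms ranged more widely than the hairpins, from 50.0% G and C in miR-744-3p to 81.8% in miR-149-3p. G alone made up 68.2% of miR-149-3p and 17.4% of miR-149-5p, and 40.9% of miR-744-5p and 9.09% of miR-744-3p. It made up 45.5% of miR-139-3p and 22.7% of miR-139-5p, and the arms of Mir652 were closer, at 38.1% for 3p and 33.3% for 5p.

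All 4 hairpins were annotated on the strand of their host, inside an intron, with no gene on the opposite strand and no other microRNA gene in the same host. Mir139 (ENSMUSG00000065446.1) lies at chr7:101475376-101475443 in GRCm38, on the plus strand, in intron 2 of the 31 introns of the principal Pde2a transcript. That intron has 29902 bases, and the hairpin starts 23907 bases after the upstream exon. Mir149 (ENSMUSG00000065470.1) lies at chr1:92850378-92850443, plus strand, in intron 1 of 8 of Gpc1, 2903 bases before the next exon. Only 1 of the 5 annotated Gpc1 transcripts spans it. Mir652 (ENSMUSG00000076011.1) lies at chrX:142739000-142739097, plus strand, in intron 2 of 6 of Tmem164, an intron of 69090 bases. Mir744 (ENSMUSG00000076460.1) lies at chr11:65734733-65734832, minus strand, in intron 3 of 10 of Map2k4. It starts 359 bases after the upstream exon, whereas the other 3 lie 18280 to 56050 bases from theirs, as the map of host introns shows.

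**Figure D1:**
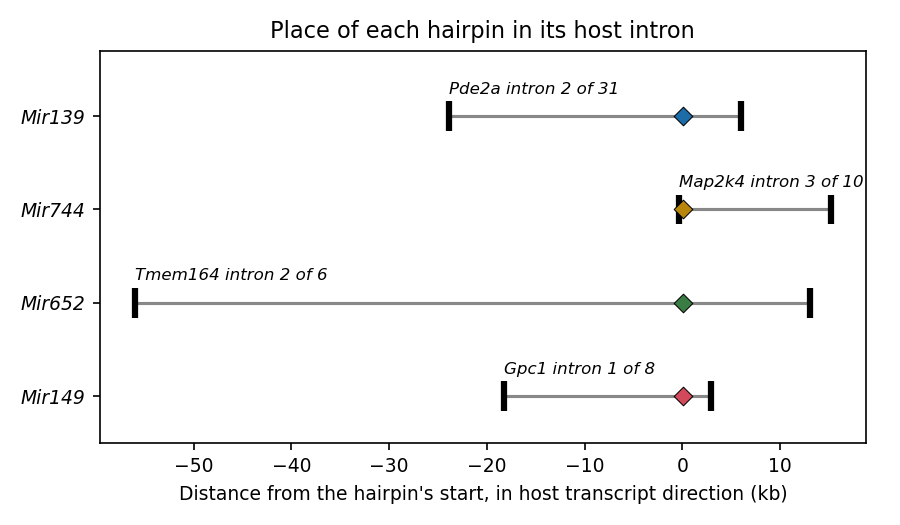
Place of each hairpin in its intron of the host's principal transcript. The x axis gives the distance from the hairpin's start in kilobases in the direction of host transcription, grey lines are introns, black ticks are the flanking exons (exon widths are not drawn) and diamonds are hairpins. Mir744 lies 359 bases after an exon, and the other 3 lie nearer to the downstream exon than to the upstream one.

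Depth and tissue were checked first. Counts assigned to microRNA genes came to 4764797 in replicate 1 and 2852269 in replicate 2, which were 36.1% and 36.4% of the reads, while 40.8% and 37.1% were multi-mapping. A count of 0 allowed up to 0.630 CPM (counts scaled to the assigned total) in replicate 1 and 1.05 in replicate 2. Of 14 brain microRNA genes (copies of Mir124a, Mir9, Mir128, Mir138 and Mir218, with Mir132 and Mir137) 11 reached 10 counts in each library, and the list summed to 25560 and 26050 CPM. These near-equal sums hide differences in both directions. Mir128-1 stood at 7405 and 2540 CPM in replicates 1 and 2, and Mir137 at 6526 and 4153. Mir138-1 stood at 2760 and 7155 CPM, and Mir132 at 4678 and 7461. Mir9-2, Mir124a-2 and Mir124a-3 did not reach 10, and as multi-copy genes with shared runs they may lose reads to the multi-mapping class. Mir124a-1 only just did, with 10 and 18 counts, or 2.10 and 6.31 CPM. The other copies of Mir9 and Mir218 added little to the sum. Mir9-1 stood at 22.9 and 16.5 CPM, Mir9-3 at 82.5 and 64.2, Mir218-1 at 23.9 and 5.26, and Mir218-2 at 85.2 and 95.4. The liver microRNA Mir122 stood at 41.1 and 25.6 CPM, and 1 of 5 muscle genes reached 10 counts, for a sum of 74.3 and 34.4 CPM. Lists for pancreas, immune cells and epithelium summed to 658 and 357, to 1136 and 931, and to 83.3 and 331 CPM. Intervals and limits in this text cover the counting error of reads only. Reads without molecular identifiers are not independent molecules, so even for that error the intervals may be too narrow.

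Mir139 was the most abundant of the 4 in both libraries. It had 316531 counts in replicate 1 and 159127 in replicate 2, or 66431 and 55790 CPM. This made it 2nd of all microRNA genes in replicate 1 and 6th in replicate 2. Its share of assigned counts was 6.64% (exact 95% Clopper-Pearson interval 6.62 to 6.67) and 5.58% (5.55 to 5.61), and its mean level was 61110 ± 7525 CPM (SD, n = 2). The 5p arm, miR-139-5p, is known in human tumour cells as a growth-restraining microRNA with IGF1R and ROCK2 among its targets. In the order of mean levels it stood between Mir99a at 63918 ± 19026 CPM and Mirlet7g, of the let-7 family, at 57974 ± 770.2. It lay above both in replicate 1 and below both in replicate 2, so these 3 neighbours do not differ beyond their spread.

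Mir744 varied most of the 4. It had 168886 counts in replicate 1 and 35734 in replicate 2, or 35445 and 12528 CPM, and it ranked 7th and 18th among all genes. Its shares were 3.54% (3.53 to 3.56) and 1.25% (1.24 to 1.27), and the mean of 23986 ± 16204 CPM (SD, n = 2) describes neither library well. In human cells miR-744 is known to lower TGFB1, the growth factor TGF-beta. The neighbours by mean level, Mirlet7d at 25553 ± 3178 and Mir433 at 22194 ± 593 CPM, both lay below Mir744 in replicate 1 and above it in replicate 2.

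Mir652 varied least of the 4. It had 67210 and 38572 counts, or 14106 and 13523 CPM, with a mean of 13814 ± 411.7 CPM (SD, n = 2) and ranks 14 and 16. Its shares were 1.41% (1.40 to 1.42) and 1.35% (1.34 to 1.37). The gene directly above it, Mir382 of the imprinted Dlk1-Dio3 region, stood at 14621 ± 553 CPM and above Mir652 in both libraries.

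Mir149 was higher in replicate 2. It had nearly equal counts in libraries of unequal depth, 47253 and 46855, which gave 9917 and 16427 CPM and ranks 18 and 12. Its shares were 0.992% (0.983 to 1.00) and 1.64% (1.63 to 1.66), with a mean of 13172 ± 4603 CPM (SD, n = 2). In human neuroblastoma cells the 3p arm is known to lower AKT1 and E2F1. The neighbours by mean level were Mir126a, the endothelial microRNA, at 13415 ± 4878 CPM, and Mir487b at 11707 ± 3349. Mir126a lay above Mir149 in both libraries, by less than the spread of either. Mir487b lay above Mir149 in replicate 1 and below it in replicate 2, and its level is uncertain, as part of its hairpin, 20 bases or more, recurs in another microRNA gene.

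**Figure D2:**
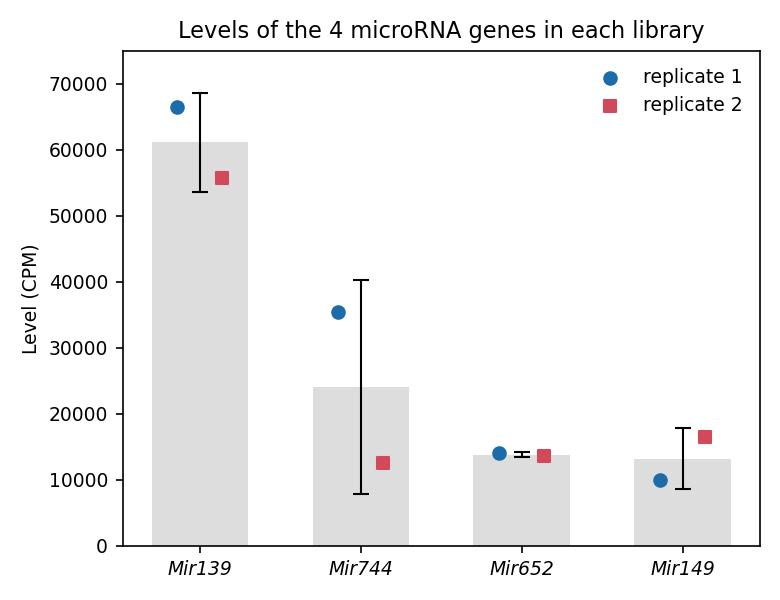
Levels of the 4 genes in CPM. Circles are replicate 1, squares replicate 2, bars the mean and error bars the SD of the 2 libraries. Mir652 sits at 14106 and 13523 CPM, while Mir744 sits at 35445 in replicate 1 and at 12528 in replicate 2.

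The order of the 3 lower genes was turned round between the libraries. In replicate 1 it was Mir744, Mir652 and Mir149, and in replicate 2 it was Mir149, Mir652 and Mir744. Mir652 and Mir149, at 13814 ± 411.7 and 13172 ± 4603 CPM, do not differ beyond their spread, and Mir744 overlapped both. Mir139 was at least 1.87 times any of the others in each library.

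Ratios within a library need no library size. There were 1.87 counts of Mir139 per count of Mir744 in replicate 1 (exact 95% counting interval 1.86 to 1.89) and 4.45 in replicate 2 (4.40 to 4.51). For Mir139 to Mir652 the ratios were 4.71 (4.67 to 4.75) and 4.13 (4.08 to 4.17), a difference of 1.14 times, the smallest of the 6 pairs. For Mir744 to Mir149 they were 3.57 (3.54 to 3.61) and 0.763 (0.752 to 0.773), a difference of 4.69 times, the largest. The ratios of Mir744 to Mir652 were 2.51 and 0.926, those of Mir652 to Mir149 were 1.42 and 0.823, and those of Mir139 to Mir149 were 6.70 and 3.40. In 3 of the 6 pairs the more abundant gene was thus a different one in each library, as the plot of pair ratios shows. Each pool had 1 library, so these differences have no replicate check.

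**Figure D3:**
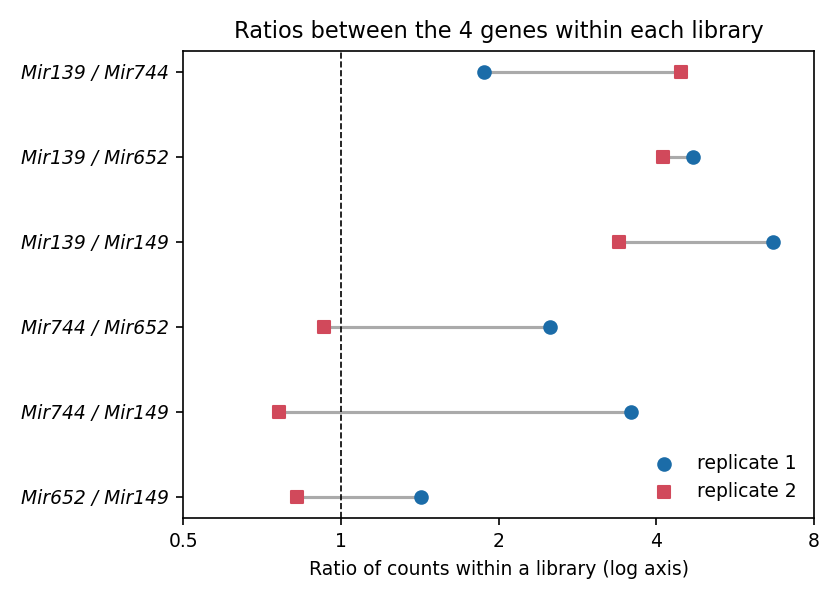
Ratio of counts between each pair of the 4 genes within a library, on a log axis. Circles are replicate 1, squares replicate 2, and the dashed line is equality. The ratio of Mir744 to Mir149 is 3.57 in replicate 1 and 0.763 in replicate 2, and that of Mir139 to Mir652 lies at 4.71 and 4.13.

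Together the 4 genes held 12.6% (12.56 to 12.62) of assigned counts in replicate 1 and 9.83% (9.79 to 9.86) in replicate 2, a mean of 11.2% ± 1.95 (SD, n = 2). Most of that gap lay in 1 gene. Without Mir744 the other 3 held 9.05% and 8.57%, a mean of 8.81% ± 0.333. Differences within these 3 partly cancelled, as Mir139 was lower in replicate 2 (6.64% and 5.58%) and Mir149 higher (0.992% and 1.64%). Without Mir139 instead, the rest held 5.95% and 4.25%, and without Mir149 they held 11.6% and 8.18%.

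The difference between the pools was set against that of all genes on TMM-scaled library sizes (a scaling that assumes most genes are alike in both). The log2 ratio of replicate 2 to replicate 1 was -0.13 for Mir139 (95% counting interval -0.14 to -0.12), -1.38 for Mir744 (-1.39 to -1.36), 0.06 for Mir652 (0.04 to 0.08) and 0.85 for Mir149 (0.83 to 0.87). The sign for Mir652 turned to -0.06 when total counts were the library sizes and to -0.11 when the totals left out the most abundant gene. Mir744 was therefore 2.60 times lower in replicate 2 and Mir149 1.80 times higher. These are ratios of 2 libraries, without a test between conditions.

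Among 450 genes, those whose counts in both libraries sum to 20 or more, 99 (22%) differed by over 2-fold, 48 (10.7%) higher and 51 (11.3%) lower in replicate 2. When the totals without the most abundant gene served as library sizes, the split was 33 higher and 67 lower. Of the 4 members 1, Mir744, was past 2-fold, which is near that background. The median absolute log2 ratio over all 450 was 0.51, with quartiles of 0.24 and 0.93. Mir139 and Mir652 lay below the lower quartile, Mir149 lay between the median and the upper quartile, and Mir744 lay above the upper quartile. Counting error narrows with depth, so the 173 genes averaging 1000 counts or more are the nearer comparison. Of these 28 (16.2%) were past 2-fold, with a median absolute log2 ratio of 0.38. An absolute ratio larger than that of Mir744 was found in 14 of the 173, larger than that of Mir149 in 34, than that of Mir139 in 143 and than that of Mir652 in 158. Across genes, hairpin GC content and the log2 ratio had a Spearman rho of 0.07 over the 450 and 0.04 over the 173, given as a description since genes of 1 library share its depth.

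**Figure D4:**
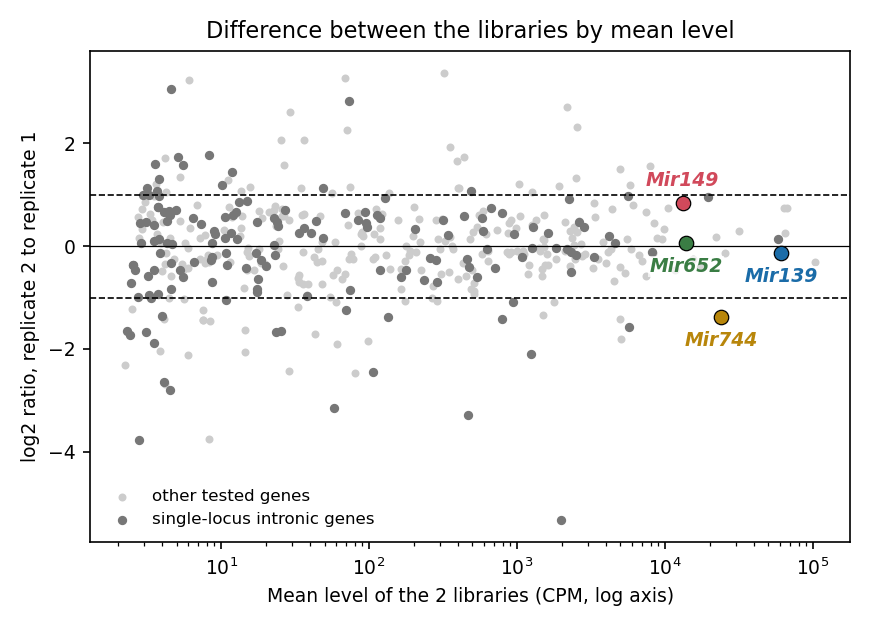
The log2 ratio of replicate 2 to replicate 1 (y axis) against mean level in CPM (x axis, log scale) for 450 microRNA genes. Dark grey points are single-locus genes in introns of protein-coding genes, light grey the other genes, large points the 4 named genes, and dashed lines mark 2-fold. Mir744 at -1.38 lies beyond the lower line, and Mir149 at 0.85, Mir652 at 0.06 and Mir139 at -0.13 lie between the lines.

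Genes whose log2 ratio was nearest to that of each member, among those averaging 1000 counts or more, were listed over these 2 libraries. For Mir139 they were Mirlet7d at -0.13 and Mir30d at -0.14. For Mir652 they were Mir361, in an intron of Chm, at 0.06 and Mir382 at 0.05. For Mir149 they were Mir221 at 0.84 and Mir126a at 0.88. For Mir744 they were Mir195a at -1.34 and Mir128-1 at -1.42, which is uncertain for the same reason as Mir487b. With 2 libraries such likeness is a single ratio.

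Marker lists of other cell types also differed between the libraries. The choroid plexus and ciliated cell list (Mir204, Mir449a, Mir34b and Mir34c, with 4 of 4 at 10 counts or more in both) summed to 3948 CPM in replicate 1 and 1186 in replicate 2, and was thus lower in replicate 2 like Mir744. The endothelial Mir126a stood at 9966 and 16864 CPM, and the red blood cell list of Mir451a and Mir144 (2 of 2 at 10 counts or more in both) summed to 265 and 701, both higher in replicate 2 like Mir149. In the red blood cell list that direction was Mir451a's, at 217 and 663 CPM, while Mir144 stood at 47.2 and 37.5. Of the other lists, the sums for liver, muscle, pancreas and immune cells were lower in replicate 2, and that for epithelium was higher. The liver list is Mir122 alone, and Mir206 held 353 and 98 of the 354 and 98 counts of the muscle list. In the pancreas list the direction was Mir375's, with a log2 ratio of -0.83, while Mir217 went the other way at 1.15 (0.59 to 1.73). Mir216a, the remaining gene of that list, had 0.16 (-1.31 to 1.54). Genes of the brain list went both ways, with Mir128-1 lower and Mir132 and Mir138-1 higher. The levels of Mir128-1 and Mir138-1 are uncertain, as each shares a run of bases with another microRNA gene. The part of any of these in the differences of Mir744 and Mir149 was not tested. In bulk tissue, fewer cells of a type and less microRNA per cell cannot be told apart.

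The 4 genes were also placed among genes of the same kind. By the annotation 442 of the 2202 genes lie wholly in an intron of a protein-coding gene on the same strand and share no run of 20 bases with another microRNA gene. Of these 137 reached 10 counts in each library, and all 442 together held 28.0% ± 2.45 (SD, n = 2) of assigned counts. By mean level Mir139 was 1st, Mir744 3rd, Mir652 6th and Mir149 7th of them. The 20 most abundant genes, from which the members were taken, hold 7 of this class, so none could rank below 7th by mean level. Within this class Mir139 was 1st in replicate 1 and 2nd in replicate 2, Mir744 3rd and 7th, Mir652 5th and 6th, and Mir149 7th and 4th. Mirlet7g (Wdr82 intron), Mir99b and Mirlet7e (both in Spaca6 introns) were the other 3 of this class among the 20 most abundant genes and belong to let-7 clusters or families, at 57974 ± 770.2, 19593 ± 7801 and 17437 ± 4515 CPM.

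The cut by abundance falls in a close part of the order. The gene at rank 20, Mir191, stood at 9867 ± 1025 CPM, and the gene at rank 21, Mir324, at 9533 ± 119. The first gene of the intronic class outside the 20 was Mir151, in a Ptk2 intron, at rank 25 with 8224 ± 970 CPM. Mir149 in replicate 1, at 9917 CPM, and Mir744 in replicate 2, at 12528 CPM, were the values of members nearest to this cut, each at rank 18 in its library.

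Of the 160 genes of the class whose counts sum to 20 or more, 37 (23.1%) were past 2-fold, beside the 22% of all tested genes, and their median log2 ratio was 0.06 beside 0.01. In the 47 averaging 1000 counts or more, 5 had a larger absolute ratio than Mir744, 11 than Mir149, 38 than Mir139 and 41 than Mir652. A list of 59 microRNAs commonly described as intronic, members included, gave 4 genes higher and 14 lower past 2-fold among 56 tested (32.1%), with a median of -0.10. Without the 4 members it gave 4 and 13 among 52, with the same median. The annotation places 48 of the 59 in introns of protein-coding genes, and 35 of these share no run of 20 bases with another gene.

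The sense column was chosen by its larger sum, so agreement of strand over all genes follows from that choice and is no result. All 4 genes had 0 counts on the opposite strand in both libraries, and the same number of counts when strand was ignored. Over all genes, opposite-strand counts came to 6.26% and 6.36% of the sense counts. That figure includes genes with another gene annotated on their opposite strand, which none of the 4 has, so it is not a like comparison.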

How the data were processed

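The authors deposited 1 table of raw counts per library, on mm10 with the M21 annotation per the text that accompanies the tables. For aligner and counter, nothing is given in the sources used here. Of the 3 deposited count columns without a header, the sense column is the stranded one whose genes sum higher. The 4 lines of reads given to no gene stayed out of CPM. With 1 group there is no test, and values are means with SD over 2 libraries. The labels call them separate biological replicates. Log2 ratios used TMM sizes from edgeR 4.0.16 (R 4.3.3) for genes whose counts sum to 20 or more, with exact binomial intervals at 95%. The ratio and its interval were tested on simulated counts with counting error only and known library sizes, so the TMM step was not tested. Ratios past 2-fold were counted as the background. Introns, hosts and shared runs of 20 bases came from M21, using the principal coding transcript that spans the hairpin. Folding used ViennaRNA 2.7.2, and other steps Python 3.11.15 with scipy 1.17.1, numpy 2.4.6, matplotlib 3.10.9 and pandas 2.3.3. DESeq2 1.42.0 size factors were an alternative.

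The members and lists were chosen with earlier results of these data known. Named beside the members were genes directly above and below each in mean CPM, the 2 nearest in log2 ratio averaging 1000 counts or more, the leading 10 of the single-locus intronic class, genes sharing a seed, and those at the abundance cut. Per-base signal tracks and alignments were not analysed here.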

Additional observations from a re-analysis of the deposited data

How the results depend on the processing

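The alternatives were the unstranded column, other library sizes, other totals for CPM, other filters, thinning of the deeper library and leaving out each replicate. Scaled to all reads, unassigned ones included, Mir139 stood at 22144, Mir149 at 4779, Mir652 at 5007 and Mir744 at 8679, and the 4 genes held 4.06% of reads, because the total is larger by construction. The small spread of Mir652 was exceeded with the unstranded column (14744 CPM), without the most abundant gene (15420) and with only genes of no shared run in the total (15206). Leaving out a replicate gave 55790 to 66431 CPM for Mir139, 9917 to 16427 for Mir149, 13523 to 14106 for Mir652, 12528 to 35445 for Mir744 and 9.83% to 12.6% for the sum. The log2 ratio of Mir652 turned negative with total counts as library sizes (-0.06) and with totals without the most abundant gene (-0.11), which shifted the median of all genes by -0.12 and -0.17. Over the alternatives Mir744 stayed between -1.55 and -1.37, Mir149 between 0.68 and 0.86 and Mir139 between -0.30 and -0.12. Genes past 2-fold numbered 99 of 450 (22.0%) as reported. They numbered 172 of 649 (26.5%) with no filter and 52 of 273 (19.0%) with a summed count of at least 200. Both the number of genes tested and the share past 2-fold thus changed with the filter. No paired analysis was possible because there is 1 group. Depth does not limit the 4 genes, whose lowest count was 35734, but 2 libraries limit every SD.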

Other observations

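Below the 4 genes, the single-locus intronic class went on with Mir151 at 8224 ± 970 CPM, Mir26b, in an intron of the phosphatase gene Ctdsp1, at 5705 ± 4249, and Mir342, in an intron of the actin regulator gene Evl, at 5640 ± 2282 (SD, n = 2). Their log2 ratios of replicate 2 to replicate 1 were -0.12 (95% counting interval -0.14 to -0.10), -1.57 (-1.60 to -1.53) and 0.97 (0.94 to 1.00). Mir26b thus stood at 8709 and 2700 CPM, a difference in the direction of Mir744, and Mir342 at 4027 and 7254, in the direction of Mir149. The relation between these genes was not tested.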
